A study of Mus musculus with 20 samples.

Results

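The 7 genes described here set how cochlear cells respond to GABA: the GABA-A receptor subunits *Gabra2*, *Gabra3*, *Gabra5* and *Gabrb2*, the chloride cotransporters *Slc12a2* (NKCC1) and *Slc12a5* (KCC2), and *Gad1*, which encodes the GABA-synthesizing enzyme GAD67. They were chosen by name, with earlier results of these data known, from 24411 genes in the deposited tables, and all 7 were found. Messenger RNA was sequenced from the cochlear sensory epithelium and spiral ganglion of C57BL/6N mice of both sexes in which *Adgrb1*, the gene for the adhesion receptor BAI1, is disrupted. Each library was a pool of 4 mice, and there were 20 libraries. The controls were Bai1tm2b/+ mice, which also carry 1 copy of the tm2b allele, and they were compared with Bai1tm2b/tm2b mice at postnatal day 7 (P7), before hearing onset, and at P22, after it. In the tm2b allele, exons 3 and 4 of *Adgrb1* are deleted in every cell and a lacZ cassette remains, but transcripts that start further downstream can still be made. At P22 there were 3 libraries per genotype. At P7 there were 7 per genotype in 2 batches, of which libraries 5 to 7 were given as estimated counts and libraries 1 to 4 as TPM (transcript abundance per length, scaled to a fixed total per library) rounded to whole numbers. The P22 libraries summed to between 35725985 and 40350413 counts and the P7 libraries in counts to between 31108551 and 58807173.

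GABA-A receptors are pentamers of alpha, beta and usually gamma or delta subunits that open a chloride channel when GABA binds, and the alpha subunit largely sets where the receptor sits and how fast it works. Whether chloride then enters or leaves the cell depends on the cotransporters: NKCC1 brings chloride in and KCC2, a neuronal protein, takes it out, and in many maturing neurons of the brain KCC2 becomes more abundant. In the cochlea, GABA is used by efferent fibres that reach the hair cells and afferent terminals, and NKCC1 is also abundant in the stria vascularis, where it carries potassium and chloride for the production of endolymph.

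On the GRCm38 (mm10) build, *Gabra2* lies at chr5:70957597-71095849, *Gabra3* at chrX:72432681-72656848 and *Gabra5* at chr7:57407672-57510059, all on the minus strand. On the plus strand, *Gabrb2* lies at chr11:42419757-42629028, *Slc12a5* at chr2:164960802-164999731 and *Gad1* at chr2:70553072-70602014. Of these genes, *Gabra5* has 4.98% of its exon bases under a gene on the opposite strand, and the strand setting of the counting is not given in the sources used here. The sequences before the RefSeq start of *Gabra5*, *Gabrb2* and *Slc12a5* are shown because these 3 genes were higher in each Bai1tm2b/tm2b library than in each Bai1tm2b/+ library among the P7 libraries in counts (values given further on). They are written 5′ to 3′ on the gene's own strand, from chr7:57510060-57510309 (*Gabra5*, minus), chr11:42420190-42420439 (*Gabrb2*, plus) and chr2:164960596-164960801 (*Slc12a5*, plus), with matched motifs in capitals:
Gabra5: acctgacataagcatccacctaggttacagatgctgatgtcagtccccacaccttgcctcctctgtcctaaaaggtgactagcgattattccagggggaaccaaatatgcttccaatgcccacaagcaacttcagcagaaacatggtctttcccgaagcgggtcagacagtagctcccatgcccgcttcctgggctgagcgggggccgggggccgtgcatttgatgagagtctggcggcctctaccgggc
Gabrb2: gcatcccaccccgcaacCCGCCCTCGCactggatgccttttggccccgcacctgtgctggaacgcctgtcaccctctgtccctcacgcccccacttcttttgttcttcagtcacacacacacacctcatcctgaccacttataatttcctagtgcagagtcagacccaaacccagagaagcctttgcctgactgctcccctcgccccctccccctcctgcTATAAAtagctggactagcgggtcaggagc
Slc12a5: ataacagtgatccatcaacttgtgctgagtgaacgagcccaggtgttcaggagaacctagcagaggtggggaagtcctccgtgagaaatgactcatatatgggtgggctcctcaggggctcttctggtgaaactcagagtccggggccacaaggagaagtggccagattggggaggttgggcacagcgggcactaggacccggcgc
On both strands these windows were searched for 6 motifs, whose frequency was also counted in 27025 RefSeq promoter windows of the same design. The GC box, a site for Sp factors, is written GGGCGG and was present in 33% of the windows. The TATA box, where the basal machinery binds some promoters, is written TATAAA and was present in 13%. A short cAMP response site, read by CREB, is written TGACG and was present in 17.8%. The site of the activity-induced EGR factors is written GCGNGGGCG and was present in 4.63%. The left side of the RE1 element, bound by the neuronal repressor REST, is written TTCAGCACC and was present in 0.292%. The E-box of basic helix-loop-helix factors is written CACGTG and was present in 6.04%. *Gabrb2* held the TATA box at position -30, and overlapping matches of the GC box and the EGR site on the opposite strand at positions -233 and -232, where -1 is the base just before the start. The windows of *Gabra5* and *Slc12a5* held none of the 6 motifs. The searched window of *Slc12a5* ran up to its RefSeq start, while the printed sequence stops 44 bases short of it, where a GENCODE exon begins. The *Gabrb2* window lies within the gene span given above. Binding of factors was not measured.

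Each of the 15 markers of spiral ganglion and peripheral neurons (neuron markers) and each of the 16 hair cell markers had a value above 0 in all 20 libraries. Many of the neuron markers, such as *Tubb3* and *Snap25*, are expressed in neurons at large. They therefore do not tell spiral ganglion neurons from other neurons. Summed neuron markers lay between 1666 and 3867 CPM (counts per fixed library total, scaled by TMM) in the P7 libraries in counts and between 15437 and 23220 CPM at P22, without overlap between the ages. In bulk tissue, fewer cells of a type and less RNA per cell cannot be told apart. *Adgrb1* itself was measured at 154, 152 and 167 CPM in the P22 Bai1tm2b/+ libraries and at 103, 100.2 and 105 CPM in the Bai1tm2b/tm2b libraries (log2 fold change -0.61, SE 0.0585, adjusted p = 0.000602, edgeR quasi-likelihood test). At P7 it was lower without overlap in the libraries in counts (32.1, 56.4 and 36.02 CPM in Bai1tm2b/+ against 25.9, 21.6 and 31.2 CPM), where 10.7% of all genes tested did not overlap. The log2 fold change of *Adgrb1* there was -0.64 (SE 0.227, adjusted p = 0.894, edgeR quasi-likelihood test). In rounded TPM both genotypes overlapped, at 7 to 12 and 9 to 12 TPM.

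The most abundant of the 7 genes was *Slc12a2*, which lies on chromosome 18 (chr18:57878678-57946821, plus strand) and was not searched for motifs. Per length (counts divided by merged exon length and rescaled as TPM, here called length-scaled TPM), *Slc12a2* was at 115 ± 7.75 in the 6 P7 libraries in counts and at 113 ± 21.8 in the 6 P22 libraries (mean ± SD). *Slc12a5* had the next highest mean over both genotypes, at 8.82 ± 6.38 at P7 and 1.92 ± 0.638 at P22. Its P7 mean was set by the Bai1tm2b/tm2b libraries (14.2 ± 3.98), and in P7 Bai1tm2b/+ libraries it was at 3.48 ± 0.618, under *Gabra3* (5.03 ± 0.828) and *Gad1* (4.96 ± 0.701). In rounded TPM its mean over 8 libraries (2.38 ± 1.51) was under those of *Gabra3*, *Gabra2*, *Gad1* and *Gabra5*. At P7, *Gabra3* (6.91 ± 2.75), *Gabra5* (6.81 ± 6.01), *Gad1* (5.77 ± 1.40), *Gabrb2* (3.47 ± 1.70) and *Gabra2* (2.23 ± 0.568) followed in length-scaled TPM, and each overlapped its neighbour in that order. At P22, *Gad1* (1.43 ± 0.390), *Gabra5* (1.23 ± 0.105), *Gabra3* (1.16 ± 0.270), *Gabra2* (0.893 ± 0.374) and *Gabrb2* (0.578 ± 0.153) were all close to 1, again overlapping from one to the next. Only the gap between *Slc12a2* and *Slc12a5* was free of overlap at either age.

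**Figure D1:**
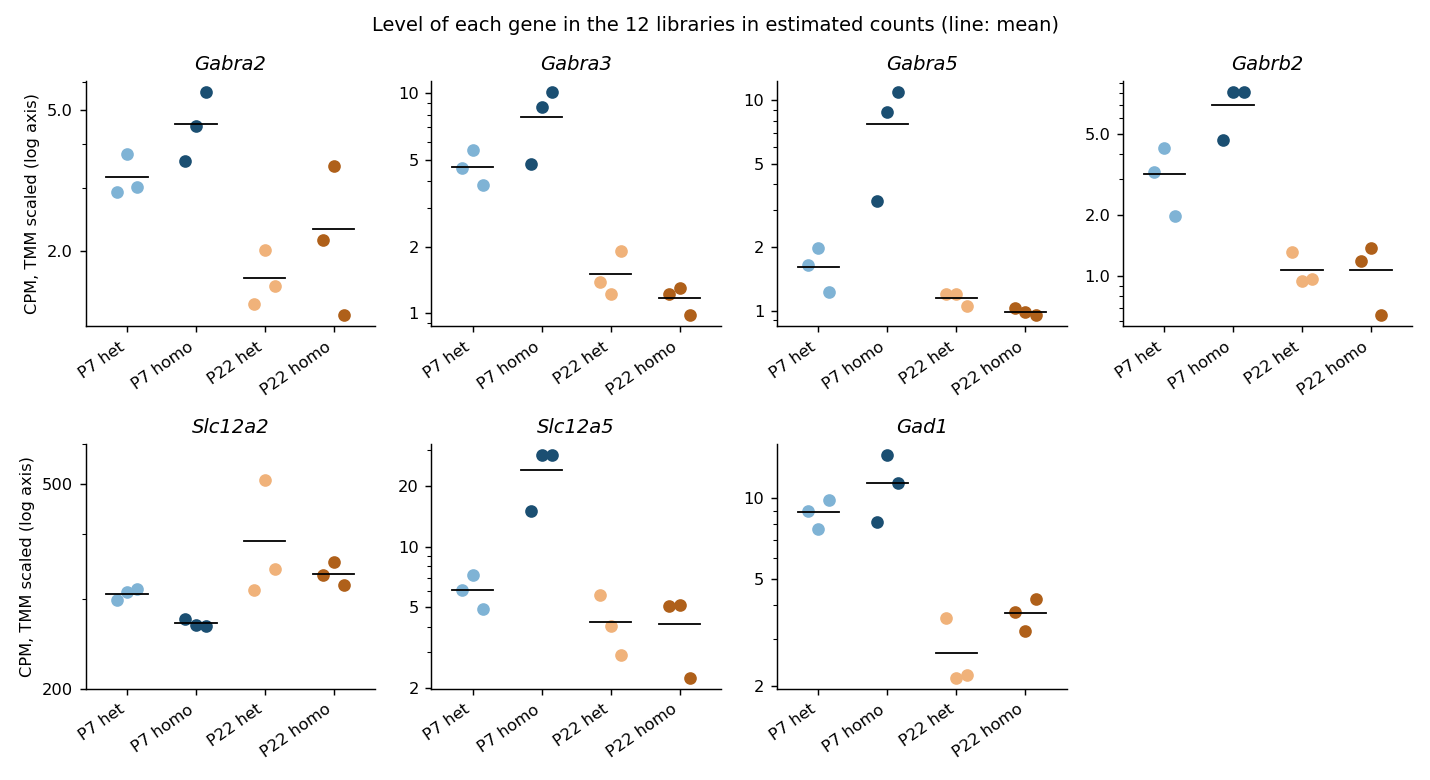
Level of each of the 7 genes in CPM (log axis) in the 12 libraries given as estimated counts, by age and genotype, where each point is 1 library (a pool of mice) and the line is the mean of 3. *Gabra5* and *Slc12a5* stand highest in the P7 Bai1tm2b/tm2b libraries, at 3.31 to 10.9 and 14.99 to 28.5 CPM, and *Slc12a2* stays between 266 and 509 CPM in all 12.

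The receptor subunits, *Slc12a5* and *Gad1* were lower at P22 than at P7, while *Slc12a2* was slightly higher. Of the 7 genes, 6 were called lower at P22 (adjusted p under 0.05, a log2 change beyond 0.5 and an SE under 0.5), where 28.7% of 16314 genes tested were called lower and 25.9% higher. *Gabra3*, the alpha subunit found in many embryonic and early postnatal neurons, was measured at 4.55, 5.51 and 3.83 CPM in Bai1tm2b/+ and 4.75, 8.66 and 10.1 CPM in Bai1tm2b/tm2b libraries at P7. At P22 the same gene was at 1.38, 1.23 and 1.91 CPM in Bai1tm2b/+ and 1.22, 1.30 and 0.977 CPM in Bai1tm2b/tm2b libraries. The ages did not overlap, and the log2 change was -2.18 (SE 0.203, adjusted p = 4.50e-07).

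*Gabrb2*, a beta subunit that pairs with several alpha subunits, was at 3.25, 4.29 and 1.98 CPM in the P7 Bai1tm2b/+ libraries and 4.70, 8.07 and 8.06 CPM in the P7 Bai1tm2b/tm2b libraries. It was at 1.32, 0.943 and 0.968 CPM in Bai1tm2b/+ and 1.19, 1.38 and 0.642 CPM in Bai1tm2b/tm2b libraries at P22. All P22 values lay under all P7 values, with a log2 change of -2.13 (SE 0.246, adjusted p = 3.86e-06). *Gad1* was measured at 9.01, 7.69 and 9.90 CPM in the P7 Bai1tm2b/+ libraries and 8.20, 14.5 and 11.4 CPM in the Bai1tm2b/tm2b libraries. At P22 *Gad1* was at 3.59, 2.14 and 2.20 CPM and at 3.77, 3.21 and 4.21 CPM, respectively. The enzyme's mRNA thus did not overlap between the ages, and its log2 change was -1.68 (SE 0.168, adjusted p = 9.60e-07).

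*Gabra2* encodes an alpha subunit common on axon initial segments in the forebrain. Its values were 2.93, 3.75 and 3.03 CPM in P7 Bai1tm2b/+ libraries, 3.59, 4.52 and 5.62 CPM in P7 Bai1tm2b/tm2b libraries, 1.41, 2.01 and 1.58 CPM in P22 Bai1tm2b/+ libraries and 2.14, 3.48 and 1.31 CPM in P22 Bai1tm2b/tm2b libraries. The log2 change was -0.97 (SE 0.216, adjusted p = 0.00110), and the second P22 Bai1tm2b/tm2b library lay within the P7 range. Ages without overlap were found for 4 of the 7 genes (*Gabra3*, *Gabra5*, *Gabrb2* and *Gad1*), against 62.6% of all genes tested.

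*Gabra5* and *Slc12a5* were called lower at P22 over both genotypes and within Bai1tm2b/tm2b, but not within Bai1tm2b/+; the edgeR test of that difference between genotypes, given further on, called neither. *Gabra5*, whose receptors lie largely outside synapses in the hippocampus, was at 1.65, 1.98 and 1.22 CPM in the P7 Bai1tm2b/+ libraries and at 1.20, 1.19 and 1.06 CPM in those of P22. In Bai1tm2b/tm2b libraries it was at 3.31, 8.80 and 10.9 CPM at P7 and at 1.03, 0.982 and 0.949 CPM at P22. Over both genotypes the log2 change was -1.73 (SE 0.262, adjusted p = 4.78e-05), but within Bai1tm2b/+ it was -0.46 (SE 0.249, adjusted p = 0.126) and within Bai1tm2b/tm2b -2.96 (SE 0.417, adjusted p = 0.000339).

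*Slc12a5* was at 6.10, 7.23 and 4.90 CPM in P7 Bai1tm2b/+ libraries and at 5.74, 4.05 and 2.90 CPM at P22, so these groups overlapped. In Bai1tm2b/tm2b libraries it was at 14.99, 28.4 and 28.5 CPM at P7 and at 5.07, 5.15 and 2.23 CPM at P22. Its log2 change was -1.53 (SE 0.241, adjusted p = 6.69e-05) over both genotypes, -0.49 (SE 0.259, adjusted p = 0.119) within Bai1tm2b/+ and -2.54 (SE 0.346, adjusted p = 0.000284) within Bai1tm2b/tm2b. Within Bai1tm2b/+ alone, 4 of the 7 genes were called lower (*Gabra2*, *Gabra3*, *Gabrb2* and *Gad1*), where 27.6% of all genes were. Within Bai1tm2b/tm2b 6 were, against 25.7% of all genes.

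*Slc12a2* went the other way. It was at 299, 309 and 313 CPM in P7 Bai1tm2b/+ libraries, 274, 267 and 266 CPM in P7 Bai1tm2b/tm2b libraries, 311, 509 and 343 CPM in P22 Bai1tm2b/+ libraries and 334, 354 and 319 CPM in P22 Bai1tm2b/tm2b libraries. The log2 change was 0.33 (SE 0.1004, adjusted p = 0.00896), which is short of the size needed for a call, and in length-scaled TPM its mean was no higher at P22 (115 at P7 and 113 at P22).

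Markers of brain neurons were lower at P22 as well: of 14 tested, all had a log2 change below 0 and 6 were called lower (median -1.79, against -1.68 for the 7 genes). Their summed level over 15 genes was 174 to 235 CPM at P7 and 125 to 167 CPM at P22, without overlap, with 0 to 3 of them at 0 in a library at either age. Hair cell markers also lay mostly below 0 (13 of 16, median -0.82), with 10 called lower and 2 higher. Macrophage markers were all below 0 (8 of 8, median -0.78), with 5 called lower. Supporting cell, central glia, and stria and fibrocyte markers were called in both directions (6, 4 and 1 lower, 4, 3 and 3 higher). Most Schwann cell markers (8 of 10) and spiral ganglion neuron markers (13 of 15) were called higher. The part of all these markers in the lower levels of the 7 genes was not tested. P7 and P22 libraries came in separate tables, so age, table and sequencing run cannot be told apart. Where libraries were scaled to the neuron markers instead of TMM, the median of all genes shifted to -2.09 on the log2 scale, and *Slc12a2* was then at -1.71, above that median but called lower, as were the other 6 genes. The P7 libraries in rounded TPM were not part of this test, but their levels can be set beside the length-scaled TPM. In them *Slc12a5* was at 2.38 ± 1.51 TPM (n = 8), against 8.82 ± 6.38 in the P7 libraries in counts and 1.92 ± 0.638 at P22. *Gabra5* was at 3 ± 2 TPM against 6.81 ± 6.01 and 1.23 ± 0.105, and *Gabra3* at 5 ± 1.604 TPM against 6.91 ± 2.75 and 1.16 ± 0.270. Rounding leaves few steps at these levels, and the 2 kinds of TPM were scaled separately.

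In the wider set of GABA, glycine and chloride genes, calls with age were made in both directions, as they were over all genes (28.7% lower and 25.9% higher). Of 15 GABA-A receptor subunit genes tested, the 4 described included, 10 were called lower at P22 and 1 higher, with a median log2 change of -2.13, against -0.05 for all genes tested. Besides the genes above, *Gabrg1* fell from 4.15 ± 1.68 to 0.346 ± 0.203 CPM (log2 change -3.57, adjusted p = 3.52e-07), *Gabra4* from 8.09 ± 2.22 to 1.22 ± 0.385 CPM (-2.70, adjusted p = 6.29e-08) and *Gabre* from 3.10 ± 0.807 to 0.595 ± 0.334 CPM (-2.42, adjusted p = 1.09e-05). Both GABA-B receptor subunits, which form a G protein-coupled receptor, were called higher, *Gabbr1* at a log2 change of 0.83 and *Gabbr2* at 2.36 (24.8 ± 6.55 to 128 ± 23.0 CPM).

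Of 13 genes for clustering and trafficking of the receptors, 8 were called higher at P22 and none lower (median log2 change 0.79). They included *Lhfpl4*, which anchors GABA-A receptors at synapses, from 38.6 ± 10.8 to 303 ± 44.3 CPM (log2 change 2.97, adjusted p = 9.40e-10), the neuronal kinesin *Kif5a* (2.31, adjusted p = 3.08e-09) and *Plcl1* (1.78, adjusted p = 7.25e-10). These genes are expressed in neurons at large, and the neuron marker sums given above moved the same way; their part in this result was not tested. Among 8 cation chloride cotransporter genes tested, 3 were called lower (*Slc12a8*, log2 change -2.99; *Slc12a5*, -1.53; *Slc12a4*, -0.56) and 2 higher. *Slc12a7* (KCC4), a chloride exporter of supporting cells, rose from 191 ± 12.5 to 519 ± 27.6 CPM (log2 change 1.45, SE 0.0546, adjusted p = 1.58e-10).

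Of 6 kinases that regulate the cotransporters, 3 were called higher (*Wnk2*, log2 change 1.72; *Wnk3*, 0.86; *Stk39*, 0.61) and *Wnk4* lower (-0.70). Of 9 genes for GABA synthesis, transport and breakdown, 3 were called lower and 2 higher, which is near the share of all genes, as are the counts for the cotransporters. The lower ones were the transporter *Slc6a11* (GAT-3; log2 change -2.90, adjusted p = 2.99e-07), *Gad2* (GAD65; -2.52, adjusted p = 2.66e-05) and *Gad1*, and the higher ones were the betaine and GABA transporter *Slc6a12* (2.49, adjusted p = 5.95e-06) and *Slc6a13* (0.80, adjusted p = 0.00193). Of 6 glycine receptor and transporter genes tested, *Glra2*, an early alpha subunit, was called lower (-3.56, adjusted p = 1.44e-05), and *Glra3* (3.75, adjusted p = 6.68e-06), the beta subunit *Glrb* (1.95, adjusted p = 1.45e-09) and *Slc6a9* (0.54, adjusted p = 3.71e-06) higher. *Glra3* was low at both ages, at 0.0524 ± 0.0415 and 0.694 ± 0.346 CPM.

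**Figure D2:**
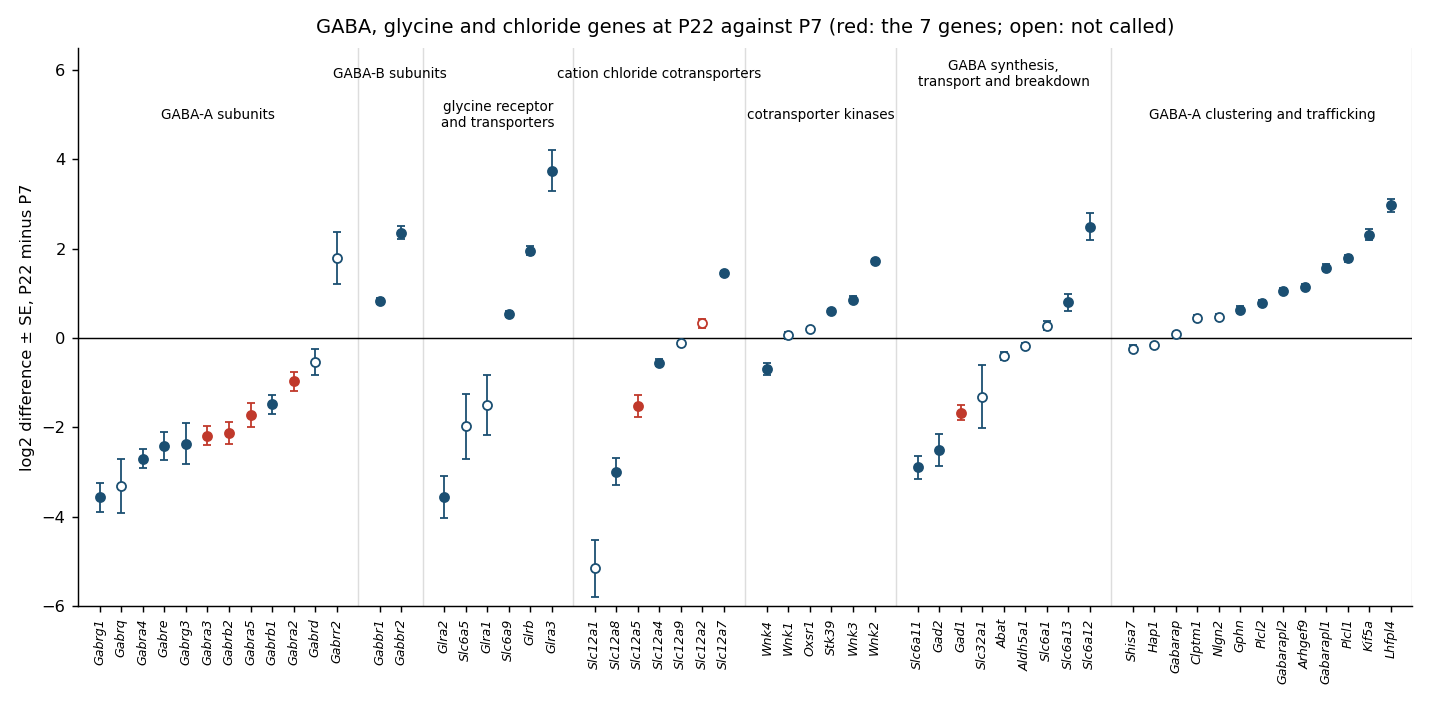
Log2 difference between P22 and P7 (± SE, edgeR) for tested genes of the GABA, glycine and chloride lists, sorted within each list; red marks the 7 genes, and open symbols were not called. GABA-A receptor subunits lie mostly under 0 and clustering genes mostly above it, with *Slc12a5* at -1.53 and *Slc12a7* at 1.45 within the same list.

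None of the 7 genes was called between Bai1tm2b/+ and Bai1tm2b/tm2b cochleae at P22 by the edgeR test, where 3.15% of 15443 genes were called. The nearest was *Gad1*, at 3.59, 2.14 and 2.20 CPM against 3.77, 3.21 and 4.21 CPM (log2 fold change 0.50, SE 0.236, unadjusted p = 0.0570, adjusted p = 0.190). Its interval of 2 SE either side ran from 0.032 to 0.98. *Gad1* was called where libraries were scaled to neuron markers (log2 fold change 0.78, adjusted p = 0.0279). *Gabra2* had a log2 fold change of 0.48, with an interval of 2 SE either side from -0.20 to 1.15. *Gabra3* was at -0.36 (-0.92 to 0.20), *Gabra5* at -0.21 (-0.75 to 0.33) and *Gabrb2* at 0.0020 (-0.68 to 0.69). *Slc12a5* was at -0.019 (-0.66 to 0.62) and *Slc12a2* at -0.20 (-0.49 to 0.089), the second P22 Bai1tm2b/+ library being high for *Slc12a2*. These intervals leave room for differences of more than 1.5-fold in either direction for *Gabrb2* and *Slc12a5*, whose counts were 23 to 52 and 80 to 194 per library.

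Groups that did not overlap were seen for *Gabra5* alone among the 7, as they were for 33.7% of all genes tested. Among the wider lists of GABA, glycine and chloride genes, the 1 gene called was *Slc6a12*, at 21.9, 24.5 and 20.4 CPM in Bai1tm2b/+ and 30.8, 40.6 and 31.8 CPM in Bai1tm2b/tm2b libraries (log2 fold change 0.63, SE 0.112, adjusted p = 0.00731). The 13 GABA-A receptor subunit genes tested had a median log2 fold change of 0.08, against 0.01 for all genes. Summed neuron markers were lower in Bai1tm2b/tm2b (15437 to 17360 CPM against 20918 to 23220 CPM), and 3 of 15 of them were called lower. Summed central glia markers were higher (821 to 1260 CPM against 612 to 759 CPM), with 10 of 10 above 0 and 4 called, and so were supporting cell markers (3439 to 3781 CPM against 2721 to 3072 CPM), with 10 of 12 above 0, 2 called higher and 1 lower. Hair cell markers (14 of 16 above 0, 3 called higher, median log2 fold change 0.43) and macrophage markers (8 of 8 above 0, 0 called, 0.30) also lay mostly above 0. Stria, Schwann cell and brain neuron markers were split, with 5 of 11, 4 of 10 and 4 of 9 above 0. The part of all these markers in the difference of *Slc6a12* was not tested.

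In the P7 libraries in counts, *Gabra5*, *Gabrb2* and *Slc12a5* were higher in Bai1tm2b/tm2b than in Bai1tm2b/+ without overlap, and *Slc12a2* was lower without overlap. No gene of 16026 was called, so 0% of all genes and 0 of the 7 passed, and the smallest adjusted p of all was 0.573. *Slc12a5*, which ranked 3 by unadjusted p, had this adjusted value. *Slc12a5* was on average at 6.08 ± 1.17 CPM in Bai1tm2b/+ and at 24.0 ± 7.77 CPM in Bai1tm2b/tm2b (n = 3 each; log2 fold change 1.99, SE 0.261, unadjusted p = 0.000107, edgeR quasi-likelihood test). *Gabra5* was at 1.62 ± 0.381 and 7.68 ± 3.94 CPM (log2 fold change 2.26, SE 0.429, unadjusted p = 0.00107, adjusted p = 0.894). *Gabrb2* was at 3.17 ± 1.16 and 6.95 ± 1.94 CPM (log2 fold change 1.14, SE 0.317, unadjusted p = 0.00837, adjusted p = 0.894).

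The lowest of the 3 Bai1tm2b/tm2b values belonged to library 5 for each of these 3 genes, and libraries 6 and 7 both lay well above it. *Gabra3* and *Gabra2* had log2 fold changes of 0.78 (SE 0.276) and 0.52 (SE 0.201), with overlapping groups, and *Gad1* of 0.38 (SE 0.203). *Slc12a2* was at 307 ± 7.34 and 269 ± 4.79 CPM, a log2 fold change of -0.17 (SE 0.0677, unadjusted p = 0.0438, adjusted p = 0.894). Groups did not overlap for 4 of the 7 genes, against 10.7% of all genes tested, and an unadjusted p under 0.05 was found for 6 of the 7, against 4.76%. The 7 genes were chosen with earlier results of these data known. Some also vary together within groups (*Gabrb2* and *Slc12a5* at r = 0.90), so these counts are descriptions only. An exact 2-sided permutation test of 3 libraries against 3 cannot go below p = 0.1, which is the value that each of the 4 genes without overlap gave.

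By DESeq2, *Slc12a5* (log2 fold change 1.99, adjusted p = 3.38e-10) and *Gabra5* (2.26, adjusted p = 6.81e-05) were called, as were 0.286% of 16766 genes; the call at P7 therefore depends on the tool. Without libraries 6 and 7 of Bai1tm2b/tm2b, which leaves 1 library in that group with its spread assumed to be like the controls', the log2 fold changes in edgeR were 1.36 for *Slc12a5* (adjusted p = 0.107), 1.09 for *Gabra5* (adjusted p = 0.199) and 0.62 for *Gabrb2* (adjusted p = 0.441).

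In the P7 libraries in rounded TPM, the genotypes overlapped for all 7 genes. *Slc12a5* was at 2, 4, 3 and 1 TPM in Bai1tm2b/+ libraries 1 to 4 and at 2, 1, 1 and 5 TPM in Bai1tm2b/tm2b libraries 1 to 4 (exact 2-sided permutation test p = 0.600). *Gabra5* was at 3, 4, 4 and 1 TPM against 2, 2, 1 and 7 TPM (exact permutation p = 0.771). *Gabrb2* was at 1, 2, 1 and 1 TPM against 2, 1, 1 and 2 TPM (exact permutation p = 1).

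Neither direction was shared by the libraries of these groups, and the highest *Gabra5* and *Slc12a5* values were both from Bai1tm2b/tm2b library 4. *Gabra2* was at 4, 6, 4 and 2 TPM against 4, 3, 3 and 6 TPM (exact permutation p = 0.800). *Gad1* was at 3, 3, 2 and 2 TPM against 5, 2, 3 and 5 TPM (exact permutation p = 0.343). A mean of at least 5 TPM was reached by 2 of the 7 genes, so the limma fit covered *Gabra3* and *Slc12a2* and called neither, where 0.809% of 11740 genes were called and 14.8% did not overlap.

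*Gabra3* was at 5, 6, 5 and 3 TPM in Bai1tm2b/+ and at 5, 5, 3 and 8 TPM in Bai1tm2b/tm2b libraries. Its log2 fold change, on the log2(TPM + 1) scale, was -0.00070 (SE 0.225, adjusted p = 0.999). *Slc12a2* was at 83, 86, 133 and 84 TPM against 95, 112, 101 and 103 TPM (log2 fold change 0.0061, SE 0.148, adjusted p = 0.984). Of the wider lists, *Gabbr2* was called higher (12, 12, 9 and 7 TPM against 13, 18, 20 and 20 TPM; log2 fold change 0.68, SE 0.154, adjusted p = 0.0439), and in the libraries in counts the same gene was at -0.25 (SE 0.219, adjusted p = 0.894). The 95 calls of this fit fell to 0 with a minimum of 1 TPM, and without any 1 of 6 libraries (Bai1tm2b/+ 2, 3 or 4, or Bai1tm2b/tm2b 2, 3 or 4).

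**Figure D3:**
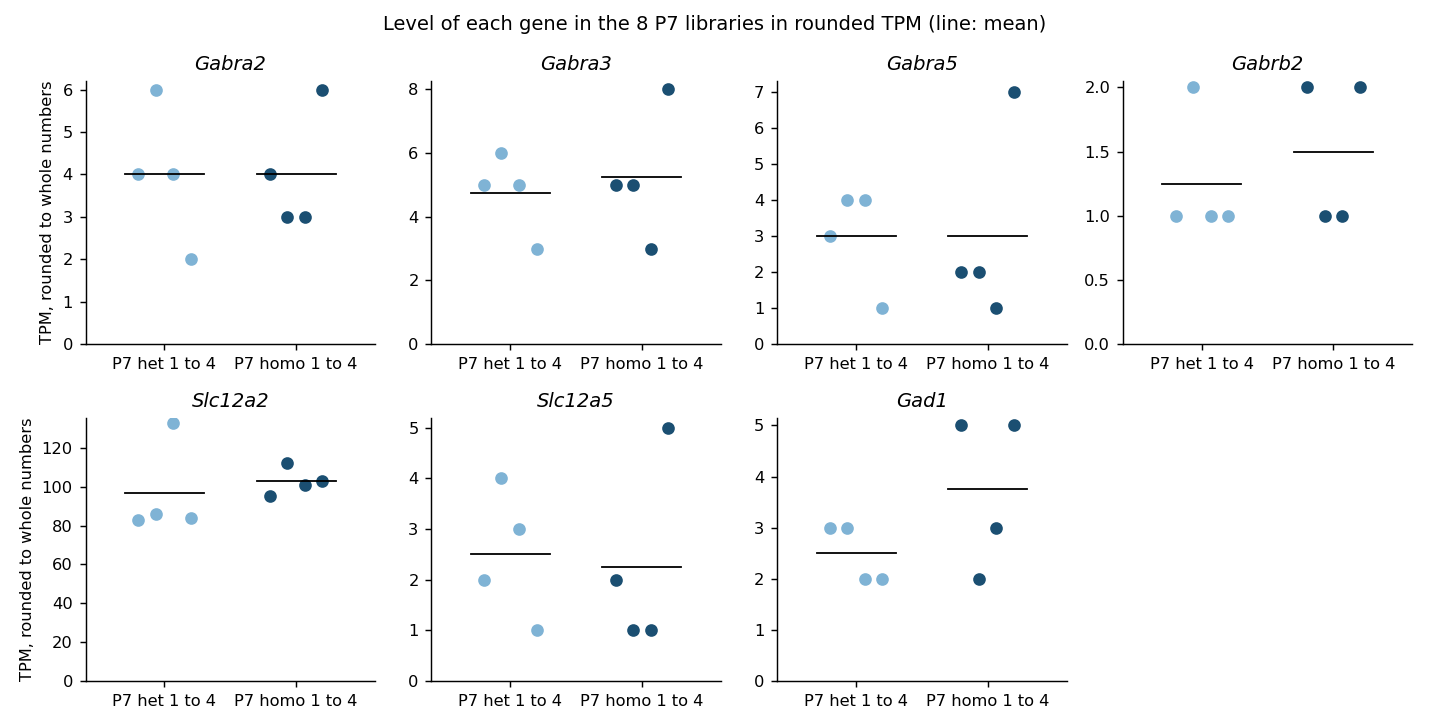
Level of each of the 7 genes in the 8 P7 libraries given as TPM rounded to whole numbers (linear axis from 0), where each point is 1 library and the line is the mean of 4. The genotypes overlap in every panel, and 1 Bai1tm2b/tm2b library is the highest for *Gabra5*, at 7 TPM, and *Slc12a5*, at 5 TPM.

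**Figure D4:**
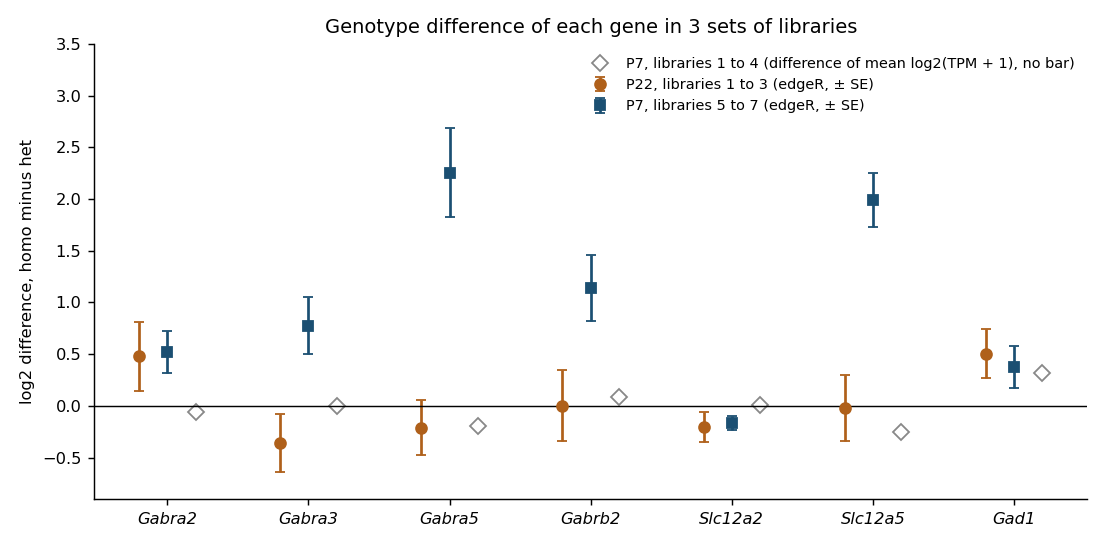
Log2 difference between Bai1tm2b/tm2b and Bai1tm2b/+ for the 7 genes at P22 and in both P7 sets, with SE bars for the edgeR fits; open diamonds are differences of mean log2(TPM + 1) with no bar. *Slc12a5* lies at 1.99, -0.26 and -0.019 in the P7 libraries in counts, those in rounded TPM and at P22.

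The difference between both P7 sets was itself tested in a fit added after the data were seen. It used log2 values, with batch, genotype and their interaction. These were log2 values of CPM for the libraries in counts and of rounded TPM for the others. Batch and unit therefore cannot be told apart in this fit, and rounding leaves few steps at low TPM. None of 14183 genes reached an adjusted p under 0.05 (2340 had an unadjusted p under 0.05, and the smallest adjusted p was 0.0576). The genotype difference of *Slc12a5* differed by 2.03 between the sets (SE 0.517, adjusted p = 0.183). That of *Gabra5* differed by 1.81 (SE 0.615, adjusted p = 0.212). The part of the unit in these values was not tested. The test of whether the genotype difference differed between the ages called none of the 7 genes by edgeR, where 0.0306% of all genes were called: *Gabra5* was at -2.46 (SE 0.524, adjusted p = 0.152) and *Slc12a5* at -1.9998 (SE 0.479, adjusted p = 0.220) for P22 minus P7. By DESeq2 *Slc12a5* was called (-2.04, adjusted p = 0.00349), and without P7 Bai1tm2b/tm2b library 5 edgeR called *Gabra5* (-2.82, adjusted p = 0.00299) and *Slc12a5* (-2.25, adjusted p = 0.0461).

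The lists of the pathway differed in direction in the P7 libraries in counts, and no gene of them was called. Of 14 GABA-A receptor subunit genes tested, *Gabra2*, *Gabra3*, *Gabra5* and *Gabrb2* among them, 13 had a log2 fold change above 0 (median 0.66, against 0.0028 over all genes). Above 0 were also 4 of 5 glycine receptor and transporter genes (median 0.83), 7 of 9 genes for GABA synthesis, transport and breakdown (0.37) and 5 of 6 kinases (0.069). The other lists were split, with 6 of 13 clustering genes (median -0.029), 4 of 8 cotransporters (0.0012) and 1 of 2 GABA-B subunits (0.074) above 0. *Gabrd*, a subunit of receptors outside synapses, was at 0.76, 0.69 and 0.41 CPM against 0.99, 2.48 and 3.31 CPM. The glycine receptor subunit *Glra1* was at 0.12, 0.11 and 0.07 CPM, close to 0, against 0.40, 1.11 and 1.34 CPM. Both genes were chosen after their values were seen. *Gabrd* went the other way in rounded TPM, with means of 1.75 TPM in Bai1tm2b/+ and 1.25 TPM in Bai1tm2b/tm2b. At P22 its log2 fold change was -0.80 (SE 0.342, adjusted p = 0.151, edgeR).

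Markers of brain neurons were also higher in the P7 Bai1tm2b/tm2b libraries in counts, and in the 1 library that stood highest in rounded TPM. Their summed level over 15 genes was 174 to 196 CPM in Bai1tm2b/+ libraries 5 to 7 and 219 to 235 CPM in Bai1tm2b/tm2b, with 1 to 3 markers at 0 in the former and none in the latter; of 14 tested, 11 had a log2 fold change above 0 (median 0.80) and none was called. *Zic2* made up most of each sum (104 to 127 CPM), while the forebrain transcription factor *Neurod2* was at 0.62, 0.75 and 0.28 CPM in Bai1tm2b/+ libraries and at 1.44, 5.51 and 6.21 in Bai1tm2b/tm2b. *Cbln1*, a secreted protein of cerebellar granule neurons, was at 6.47, 7.81 and 3.48 against 12.6, 26.7 and 29.4 CPM. In rounded TPM, Bai1tm2b/tm2b library 4 had the highest sum (153 TPM, the other 7 libraries being at 83 to 121), with *Neurod2* at 3 TPM and *Cbln1* at 24 TPM; in the other 7 libraries these genes were at 0 to 2 and 2 to 14 TPM. *Neurod2* and *Cbln1* were named after their values were seen, and 4 of the 15 markers (*Slc32a1*, *Gad2*, *Gabra6* and *Slc6a5*) also belong to the GABA and glycine lists. Other marker lists moved too in the libraries in counts, with no gene called. Log2 fold changes were below 0 for 10 of 10 Schwann cell markers (median -0.51), 12 of 15 spiral ganglion neuron markers (-0.31) and 10 of 12 stria and fibrocyte markers (-0.30). They were above 0 for 15 of 16 hair cell markers (0.16) and 8 of 10 central glia markers (0.40). Supporting cell markers (7 of 12 above 0) and macrophage markers (4 of 8) were split. In rounded TPM, spiral ganglion neuron markers went the other way (13 of 14 above 0, median 0.23). So did central glia markers (9 of 9 below 0, median -0.36, 1 called lower). Schwann cell (7 of 10, 1 called lower), stria and fibrocyte (7 of 9) and macrophage markers (7 of 8) were mostly below 0. Hair cell (8 of 15 above 0) and supporting cell markers (7 of 12) were split, with 1 called higher in each. The part of all these markers in the differences of *Gabra5*, *Gabrb2* and *Slc12a5* was not tested.

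The makeup of the alpha subunit pool was compared per length. In P7 Bai1tm2b/+ libraries *Gabra3* held 32.3% ± 1.51 of the summed level of the 6 alpha subunits, *Gabra4* 30.0% ± 3.55, *Gabra5* 14.8% ± 1.71 and *Gabra2* 11.6% ± 0.705 (SD, n = 3). In P7 Bai1tm2b/tm2b libraries *Gabra5* held 34.0% ± 7.41 and *Gabra3* 27.7% ± 0.357. *Gabra5* was the largest part in libraries 6 and 7 (37.6% and 39.0%), while in library 5 it held 25.5%, under *Gabra3* at 27.8% and *Gabra4* at 26.2%. At P22 the shares lay closer together, *Gabra3* being at 25.0% ± 7.77 and *Gabra5* at 24.9% ± 0.726 in Bai1tm2b/+ libraries. The sum itself went from 13.7 to 17.6 length-scaled TPM in P7 Bai1tm2b/+ libraries to 4.88 to 5.65 at P22. Among beta subunits, *Gabrb2* held 11.5% ± 2.32 in P7 Bai1tm2b/+ libraries, 18.4% ± 0.482 in P7 Bai1tm2b/tm2b libraries and 2.17% ± 0.407 in P22 Bai1tm2b/+ libraries.

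The ratio of *Slc12a2* to *Slc12a5* per length was 33.4, 29.2 and 43.5 in P7 Bai1tm2b/+ libraries and 12.5, 6.40 and 6.36 in P7 Bai1tm2b/tm2b libraries. At P22 it was 37.0, 85.7 and 80.5 in Bai1tm2b/+ and 44.9, 46.9 and 97.4 in Bai1tm2b/tm2b libraries. *Slc12a2* thus exceeded *Slc12a5* in each of the 12 libraries. The ratio is that of whole tissue and not of any single cell type.

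**Figure D5:**
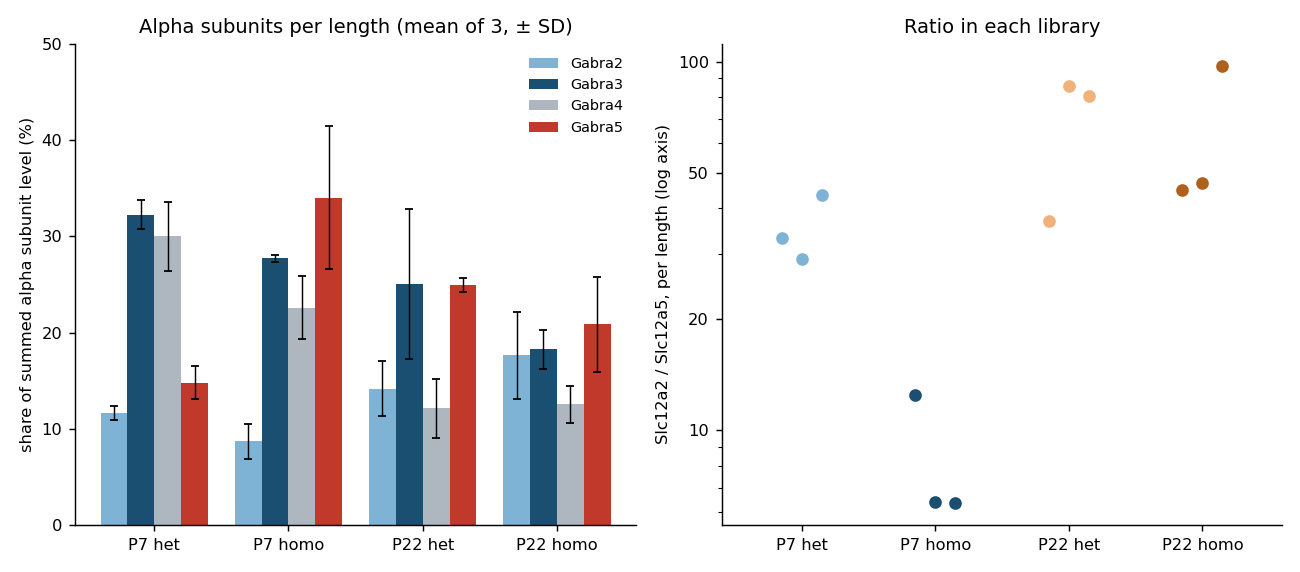
Left, share of *Gabra2*, *Gabra3*, *Gabra4* and *Gabra5* in the summed length-scaled level of 6 alpha subunits in percent (bars, mean of 3 libraries per group; error bars, SD); right, the ratio of *Slc12a2* to *Slc12a5* per length in each library (log axis). *Gabra5* takes 34.0% on average in P7 Bai1tm2b/tm2b libraries, where the ratio is lowest, at 6.36 to 12.5.

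Genes whose pattern across the 12 libraries in counts was most like that of each of the 7, after centring within the 4 groups of age and genotype, were ranked over 13839 genes by Pearson correlation of log2 CPM; as 12 values less 4 means leave few independent points, these are descriptions. *Gad1* was nearest to *Tecta* (r = 0.99), a tectorial membrane protein secreted by supporting cells, then *Cldn6* and *Ring1* (0.94 and 0.93). *Slc12a5* was nearest to the neuronal scaffold gene *Anks1b* (0.94), the glutamate receptor *Grm3* (0.91) and *Gabrb2* (0.90), and *Gabrb2* to *Nup54* (0.94), *Trank1* (0.92) and *Slc12a5*. *Gabra3* was nearest to the receptor gene *Ret* (0.98), *Cmpk1* and *Hpcal4* (0.98 each), and *Gabra5* to *Avpi1* (0.99), *Dstn* and *Eif3m* (0.97 each). *Slc12a2* was nearest to *Creg1* (0.96), the keratin *Krt7* (0.96) and *Trim30d* (0.95). The gene nearest to *Gabra2* (r = 0.97) has lost its symbol to a date in the table, and *Mapre1* (0.94) and *Sptlc1* (0.93) followed. Among the 7, *Gabra5* and *Gabra3* were at r = 0.81, while *Slc12a2* was at or below 0.45 with each of the others.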

How the data were processed

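Poly(A) RNA of micro-dissected cochlear tissue was sequenced in 20 libraries, each a pool of 4 mice. The nf-core pipeline was used by the authors on paired reads, with mm10 as the genome and Salmon for the counts (STAR, Salmon and DESeq2 stand in the submitters' processing notes, without versions); the annotation release is not given in the sources used here. The deposited values are estimated counts per gene, not normalized, for the P22 libraries and P7 libraries 5 to 7. For P7 libraries 1 to 4 the authors deposited a score per gene, TPM rounded to whole numbers (inferred from sums of 999644 to 999777 per library), so their depth is unknown. Columns of the authors' own comparisons were not used. A few symbols had been turned into dates by a spreadsheet.

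Counts were rounded and tested with edgeR 4.0.16 (filterByExpr, TMM, quasi-likelihood, Benjamini-Hochberg over all genes tested) in R 4.3.3, within P22, within P7 libraries 5 to 7, and over 12 libraries for age and its interaction with genotype. Rounded TPM were tested with limma 3.58.1 on log2(TPM + 1), scaled by TMM, where a gene averaged 5 TPM or more, and single genes under it by exact 2-sided permutation. A call needed an adjusted p under 0.05, a log2 change beyond 0.5 and an SE under 0.5 (for edgeR, the log2 change divided by the root of F). DESeq2 1.42.0, no filter, no TMM, scaling to neuron markers, other pseudocounts and minima, the replicate number as a block and leaving out libraries were alternatives. Positions and lengths came from GENCODE M21 (GRCm38; 23350 of 24411 genes matched) and promoters from RefSeq (GRCm38.p6), 250 bases upstream less bases in a GENCODE exon; 6 of the 7 genes had one, and that on chromosome 18 was not used. The fits were tested on simulated data. p-values measure the spread between pools of mice.

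The 7 genes and all lists were chosen with earlier results of these data known. Named in the text were the 7 genes, *Adgrb1*, list genes called between genotypes, the 3 list genes with the largest called change with age in each direction, and the 3 genes correlating most with each of the 7 (mean of at least 1 CPM at both ages, prior count 1); others are said to be named after their values were seen. Results of a few list genes are not reported here.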

Additional observations from a re-analysis of the deposited data

Results flagged for a closer look

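In the P7 libraries in rounded TPM, a sample far from the rest of its group of 4 was found for 3 of the 14 combinations of gene and genotype. The rate of about 1 in 20 by chance holds for continuous values, so it cannot be set against these whole numbers. *Gabra5* was at 7 TPM in Bai1tm2b/tm2b library 4, the others being at 1 to 2 TPM. *Gabrb2* was at 2 TPM in Bai1tm2b/+ library 2 and at 1 TPM in the other 3, which is a single step of rounding. *Slc12a2* was at 133 TPM in Bai1tm2b/+ library 3, the others being at 83 to 86 TPM. Groups of 3 libraries were not screened in this way.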

How the results depend on the processing

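No gene of the 7 was called between genotypes in P22 or P7 counts without a change of tool or scaling: scaled to neuron markers, 1 was called at P22 (*Gad1*, log2 fold change 0.78, adjusted p = 0.0279; the median of all genes shifted to 0.29) and 2 at P7 (*Slc12a5*, 2.24, and *Gabra5*, 2.46; median 0.29), and by DESeq2 2 were called at P7, with 48 genes in all against 0, and 1 in the interaction of age and genotype (*Slc12a5*, -2.04, adjusted p = 0.00349; 119 genes against 5). Leaving out 1 library at a time gave 0 to 2 calls of the 7 in the interaction; both calls, *Gabra5* (-2.82, adjusted p = 0.00299) and *Slc12a5* (-2.25, adjusted p = 0.0461), came without P7 Bai1tm2b/tm2b library 5, where 101 genes were called. The cause of these shifts was not tested. The count of 6 genes lower at P22 was kept without libraries 6 and 7 of P7 Bai1tm2b/tm2b and without each single library. In rounded TPM, 95 genes were called, and none with a minimum of 1 TPM, with no minimum or with the replicate block, and 293 without TMM; leaving out 1 library gave 0 to 332, the latter without Bai1tm2b/tm2b library 1. At P22 the 487 genes called became 270, 285 and 282 without Bai1tm2b/+ library 1 or 3 or Bai1tm2b/tm2b library 2.

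Signs turned for values close to 0. At P22, *Gabrb2* was at -0.0023 (DESeq2), -0.00084 (no filter) and -0.037 (replicate block), *Slc12a5* at 0.041 (no TMM), and under neuron scaling *Gabra5* was at 0.065, *Slc12a2* at 0.070 and *Slc12a5* at 0.25. At P7, *Slc12a2* was at 0.14 under neuron scaling and *Gad1* at -0.052 without libraries 6 and 7, which also put the interaction of *Gabra2* at 0.33. With age, *Slc12a2* was at -1.71 under neuron scaling. In rounded TPM, *Gabra3* was at 0.0029 (pseudocount 2) and 0.091 (no TMM). With 1 library left out, P22 values ran from -0.23 to 0.28 (*Slc12a5*), -0.22 to 0.26 (*Gabrb2*) and -0.34 to 0.041 (*Slc12a2*), interactions from -0.44 to 0.25 (*Gabra2*), -0.15 to 0.23 (*Slc12a2*) and -0.052 to 0.42 (*Gad1*), and rounded TPM from -0.15 to 0.19 (*Gabra3*) and -0.080 to 0.18 (*Slc12a2*).

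Same-numbered libraries of the genotypes did not deviate together (correlations of -0.26 to 0.077), so the numbers were not read as pairs; with the replicate block, 0 of the 7 genes were called at P22 and at P7 in counts and 6 with age. Low counts limit *Gabra5* and *Gabrb2* at P22, where single libraries held 23 to 52 counts, and rounding limits 5 of the 7 genes in the other P7 libraries.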

Other observations

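*Slc6a11*, the GABA transporter GAT-3 of astrocytes in the brain, varied among the P7 libraries. It was at 41.1, 45.6 and 23.4 CPM in Bai1tm2b/+ libraries 5 to 7 and at 62.7, 98.3 and 168 CPM in Bai1tm2b/tm2b libraries 5 to 7 (log2 fold change 1.59, SE 0.375, unadjusted p = 0.00360, adjusted p = 0.894, edgeR). In rounded TPM *Slc6a11* was at 33, 51, 34 and 12 TPM in Bai1tm2b/+ and at 29, 21, 12 and 68 TPM in Bai1tm2b/tm2b libraries 1 to 4. At P22 it was at 8.59, 8.42 and 7.16 CPM and at 9.25, 11.9 and 5.92 CPM, and the genotypes overlapped.

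*Slc12a7* (KCC4) was lower without overlap in the P7 Bai1tm2b/tm2b libraries in counts, at 199.9 ± 10.3 CPM in Bai1tm2b/+ and 181 ± 4.75 CPM in Bai1tm2b/tm2b (SD, n = 3), and was not called (log2 fold change -0.12, adjusted p = 0.894, edgeR). In rounded TPM the direction was the opposite, *Slc12a7* being at 46, 39, 33 and 34 TPM in Bai1tm2b/+ and at 46, 65, 67 and 52 TPM in Bai1tm2b/tm2b (log2 fold change 0.47, adjusted p = 0.0482, under the size needed for a call). These genes were chosen after their values were seen.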
